A study of Mus musculus with 54 samples.

Results

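The clustered protocadherins are cell surface adhesion proteins encoded by neighbouring alpha, beta and gamma gene clusters on mouse chromosome 18. Members were chosen by symbol alone, as every name in the count tables made of Pcdha, Pcdhb or Pcdhg, an optional letter a, b or c, and a number. The rule found 58 of the 23284 genes listed in each count table, with 14 in the alpha, 22 in the beta and 22 in the gamma cluster. In the annotation of the mm9 build the alpha cluster lay at chr18:37089939-37347311, the beta cluster at chr18:37424652-37681073 and the gamma cluster at chr18:37833989-38001527.

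As background, each alpha and gamma gene has its own promoter and its own large first exon, which is spliced to constant exons shared by the whole cluster, while each beta gene is a single coding exon with its own promoter. Neurons choose among these promoters, so that cells differ in the set of isoforms on their surface, and like isoforms on touching membranes bind each other. The C-type genes at the end of the alpha and gamma clusters (Pcdhac1, Pcdhac2, Pcdhgc3, Pcdhgc4 and Pcdhgc5) are used more constitutively in neurons. The zinc finger protein CTCF is known to bind many of these promoters and, with cohesin, to bring them to distant enhancers. BORIS, encoded by Ctcfl, is a paralog of CTCF that is made in male germ cells and has a near-identical DNA-binding domain.

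Germ cells came from 3-month-old mice of 4 genotypes. The genotypes were WT, CTCF HET (Ctcf+/-), BORIS KO (Boris-/-) and the compound mutant CM (Ctcf+/-Boris-/-), which the labels also call DKO. Loss of both Ctcf alleles is lethal in the embryo, so CTCF HET and CM mice kept 1 Ctcf allele, and BORIS KO mice kept both. The whole testis libraries were made from germ cell-enriched suspensions of 4 pooled mice each, depleted of ribosomal RNA, with 3 libraries per genotype. Round spermatids (haploid cells after meiosis) and spermatocytes (cells in meiosis) were purified by elutriation and sorting, and their poly(A) RNA was sequenced, with 3 libraries per genotype and preparation except for 2 of WT spermatocytes. CTCF, BORIS, RNA polymerase II (Pol2) and H3K4me3, a histone mark of active promoters, were mapped by ChIP-seq in whole testis germ cells, and 1 peak list was used per antibody and genotype.

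Total counts ranged from 10437683 to 42055813 in whole testis, from 47740650 to 98545423 in round spermatids and from 53337530 to 88946702 in spermatocytes. Between 28 and 55 members had 10 or more counts in a whole testis library, between 21 and 44 in a round spermatid library and between 6 and 17 in a spermatocyte library. Levels below are CPM, the counts of a gene scaled to a common library size, and are not corrected for gene length, so where genes are ordered by CPM below, this is an order by counts and not by RNA molecules. Alpha genes share constant exons and beta genes resemble each other in sequence, and the counting rule was not given in the sources used here. Pcdha4 had between 0 and 13 counts in whole testis libraries in which Pcdha2 had between 124 and 1525, so reads of the shared alpha exons were not added to every alpha gene. Pcdha4 itself is uncertain, because an overlapping entry of similar name (Pcdha4-g) stood at 0 in every library.

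The targeted genes were examined first. Ctcf stood at 47.0, 39.9 and 40.7 CPM in WT testis, at 27.6, 30.2 and 22.3 in CTCF HET testis and at 27.4, 26.9 and 24.0 in CM testis, so that no CTCF HET or CM library reached the lowest WT library. Purified CM cells did not follow this order. Ctcf stood at 172, 44.6 and 39.5 CPM in the round spermatids labelled CM against 48.7, 31.3 and 29.4 in WT, and at 85.9, 34.0 and 33.0 in the spermatocytes labelled CM against 35.2 and 33.3 in WT. Directions drawn from the purified libraries labelled CM carry this limit. Ctcfl had 18, 9 and 8 counts in WT testis and 7, 5 and 3 in BORIS KO testis, but 149, 175 and 184 counts in BORIS KO round spermatids against 252, 239 and 174 in WT, and gene counts do not show which exons these reads came from.

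Several purified libraries stood apart. Genes with at least 1 count numbered 12018 to 13406 in CTCF HET spermatocytes and 14145 to 16666 in CM spermatocytes, against 17631 and 17683 in WT spermatocytes, and 14932 to 16670 in CM round spermatids against 17504 to 17985 in WT. WT round spermatid replicate 1 lacked members that the other 2 WT libraries held. In that library 15 members had under 10 counts where replicates 2 and 3 had 20 or more, 9 of them in the alpha, 1 in the beta and 5 in the gamma cluster. Pcdha5, for example, had 3 counts in replicate 1 and 259 and 226 in replicates 2 and 3, although replicate 1 was the deepest of the 3. This pattern was not counted over all genes, so it is not shown to be particular to the members.

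**Figure D1:**
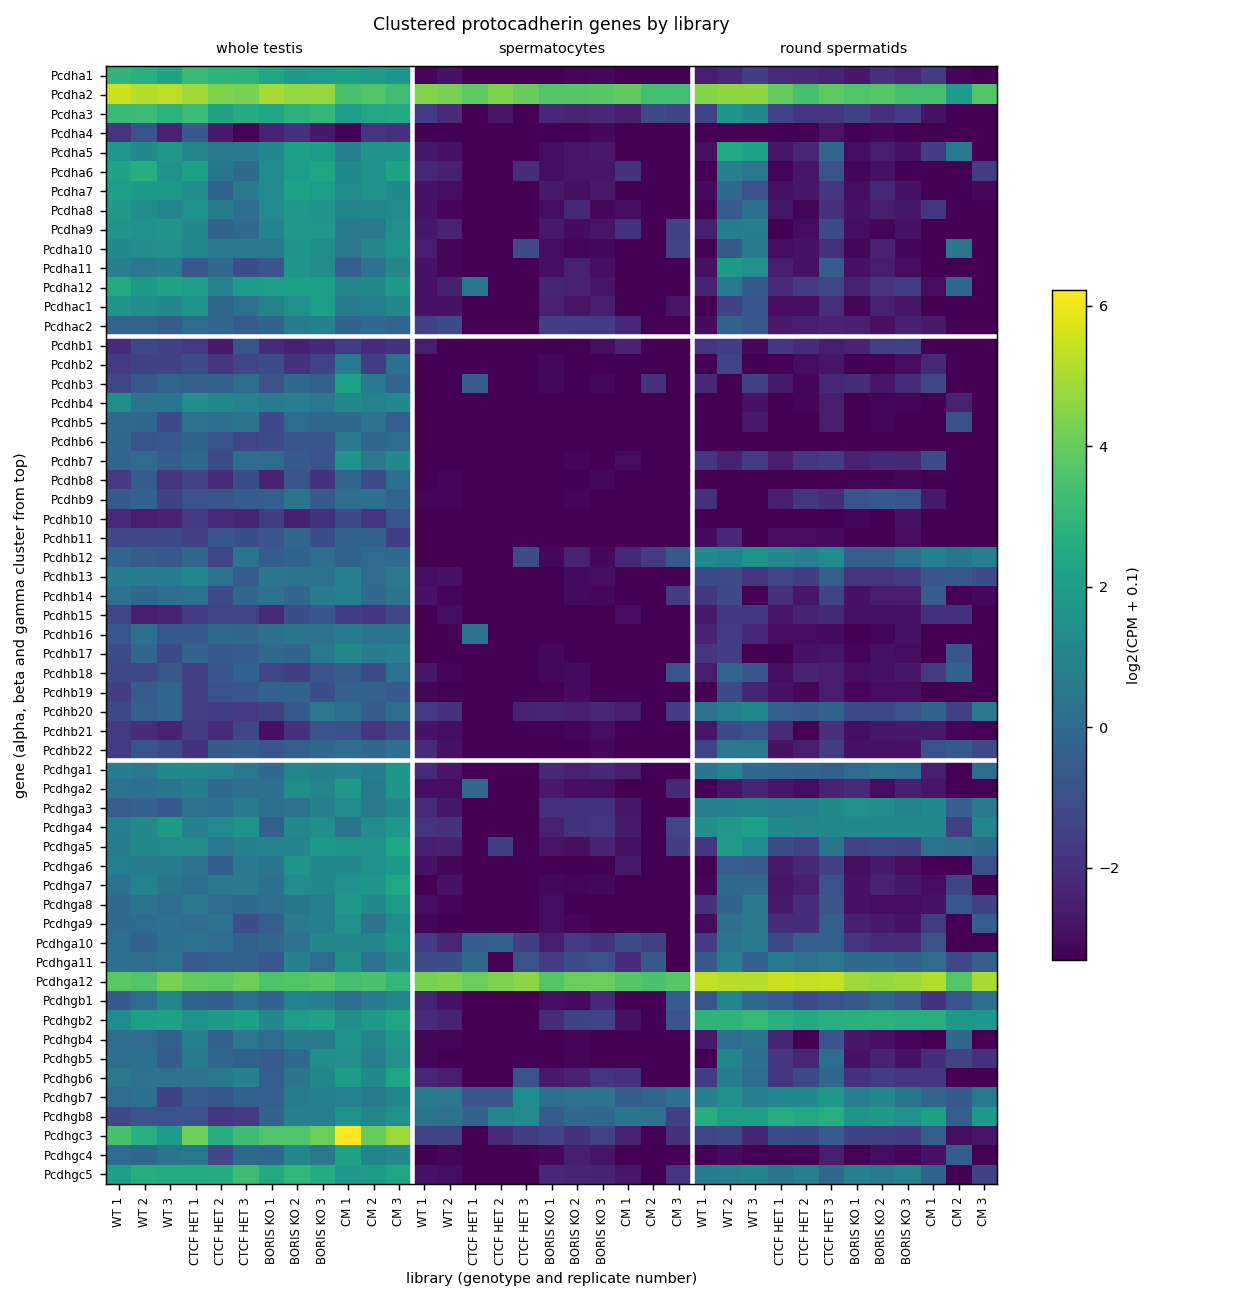
Level of each of the 58 clustered protocadherin genes (rows, in cluster order) in each of the 35 RNA libraries (columns, by preparation, genotype and replicate number), as log2 of CPM plus 0.1. Pcdha2 and Pcdhga12 form bright rows in all preparations, the other members are low in spermatocytes, and the alpha rows of WT round spermatid replicate 1 are darker than those of replicates 2 and 3.

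In WT cells Pcdha2 and Pcdhga12 took the most counts of the alpha and gamma clusters in every preparation. Pcdha2 stood at 39.7 ± 4.89 CPM (SD, n = 3) in whole testis, 24.1 ± 1.74 (n = 3) in round spermatids and 20.2 ± 1.37 (n = 2) in spermatocytes. Pcdhga12 stood at 15.1 ± 3.47 CPM in whole testis, 37.8 ± 2.88 in round spermatids and 20.0 ± 1.13 in spermatocytes. The whole testis and the purified cells were prepared and scaled separately, so levels are not compared between them. Pcdha2 took 95.5% to 95.6% of all alpha counts in WT spermatocytes and 44.3% to 50.2% in WT testis, and in WT round spermatids it took 97.2% in replicate 1 and 55.8% and 60.0% in replicates 2 and 3. Pcdhga12 took 81.2% to 84.5% of the gamma counts in WT spermatocytes, 48.4% to 62.8% in round spermatids and 25.1% to 34.1% in whole testis.

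The beta cluster had no gene with such a share in whole testis, where the highest mean CPM values were those of Pcdhb4 (1.63 ± 0.781 CPM) and Pcdhb13 (1.49 ± 0.0629). In WT round spermatids the highest mean CPM values were those of Pcdhb12 (2.35 ± 0.500 CPM) and Pcdhb20 (1.62 ± 0.519), and in WT spermatocytes Pcdhb20 (0.178 ± 0.0271) and Pcdhb22 (0.0790 ± 0.0556). The next alpha and gamma genes also differed by preparation. They were Pcdha3 (8.50 ± 1.26 CPM) and Pcdhgc3 (6.99 ± 3.67) in whole testis, Pcdha5 (3.32 ± 2.91, the SD reflecting the near absence in replicate 1) and Pcdhgb2 (7.77 ± 0.632) in round spermatids, and Pcdhac2 (0.303 ± 0.0574) and Pcdhgb7 (1.34 ± 0.0869) in spermatocytes.

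Within WT cells, round spermatids held more protocadherin RNA than spermatocytes. Of the 58 members, 53 had a higher mean CPM in round spermatids. With edgeR's quasi-likelihood test and Benjamini-Hochberg adjustment over all genes, 26 of the 43 members that passed the low-count filter rose by more than 2-fold at an adjusted p below 0.05 and none fell. By the same rule 52.3% of all 16052 genes tested were called, of which the higher ones made up 29.3% of those tested. The median difference (round spermatids minus spermatocytes) was 3.69 on the log2 scale over the tested members and 0.0152 over all genes. It was 3.59 with the 3 tested members that had no spermatocyte count set to their lower bound. Members passed the filter mostly through the round spermatid libraries, so the median describes the tested members only.

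Pcdhb12 is a beta gene with a single coding exon. It had 203, 88 and 148 counts in the WT round spermatid libraries and 0 counts in both spermatocyte libraries. The mean of the round spermatids was at least 118.8-fold above the level that 3 counts over both spermatocyte libraries would give (adjusted p = 3.3e-05, edgeR quasi-likelihood test). Pcdhb7 was also at 0 in spermatocytes and was at least 8.09-fold higher in round spermatids (adjusted p = 0.0108, edgeR), and Pcdhb17, at least 6.82-fold higher, did not pass the test.

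Among gamma genes, Pcdhgb2 had 658, 345 and 437 counts in round spermatids and 10 and 7 in spermatocytes, a log2 difference of 6.12 (SE 0.28). Pcdhgc5, a C-type gene whose protein is found at GABAergic synapses in brain, had 139, 74 and 95 counts against 3 and 2 (5.61, SE 0.44). Pcdhga4 (4.34, SE 0.37), Pcdhga3 (4.34, SE 0.44), Pcdhga1 (3.94, SE 0.57) and Pcdhgb1 (4.09, SE 0.85) followed. In each of these 6 genes all 3 round spermatid libraries lay above both spermatocyte libraries. The share of all genes with such separation was not counted. Calls favour separated genes, so this adds no support for them. Pcdhgb8 rose less (2.05, SE 0.29), from 1.22 and 1.07 CPM in spermatocytes to 6.15, 3.92 and 3.85 in round spermatids.

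Further genes rose with less even round spermatid libraries. Pcdha5 (6.13, SE 1.89), Pcdha9 (3.84, SE 1.26) and Pcdha11 (6.23, SE 1.88) were high in 2 of the 3 round spermatid libraries, while replicate 1 lay within or below the spermatocyte range. Pcdha3 (3.41, SE 1.00) and Pcdha12 (3.53, SE 1.22) were likewise highest in replicates 2 and 3, with replicate 1 only slightly above both spermatocyte libraries, at 0.282 CPM against 0.223 and 0.119 for Pcdha3 and 0.0903 against 0.0394 and 0.0794 for Pcdha12. In the beta cluster Pcdhb13 (3.11, SE 0.81), Pcdhb18 (3.65, SE 1.25), Pcdhb20 (3.19, SE 0.45) and Pcdhb22 (3.59, SE 0.89) rose, and in the gamma cluster Pcdhga5 (4.83, SE 1.28), Pcdhga10 (2.65, SE 0.86) and Pcdhgb6 (3.36, SE 0.90). Pcdhga7, Pcdhga8, Pcdhga9, Pcdhgb4 and Pcdhgb5 were called as well, with only 3, 3, 1, 2 and 1 counts over both spermatocyte libraries against 88, 117, 118, 111 and 146 in round spermatids.

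Pcdha2 and Pcdhga12 were not among the called genes. Pcdha2 was 0.28 (SE 0.13) higher in round spermatids on the log2 scale (adjusted p = 0.0903, edgeR), and Pcdhga12 was 0.95 (SE 0.13) higher (adjusted p = 0.000336), below the 2-fold limit. The sums of 7 spermatid marker genes, 1193 to 1369 CPM in WT round spermatids and 33.2 to 33.6 in WT spermatocytes, and of 7 spermatocyte marker genes, 4497 to 5158 against 8222 to 8789, followed the labels, and Sertoli and Leydig cell markers summed to at most 16.2 and 10.2 CPM. Other markers were higher in round spermatids. Macrophage markers summed to 84.4 to 96.6 CPM against 2.61 to 3.04 in spermatocytes, with 3 of 6 called higher and 1 lower, and spermatogonial markers to 24.2 to 30.6 against 6.66 to 6.82, with 5 of 8 called higher. Their part in the protocadherin differences was not tested. The count of members that rose was 35 without round spermatid replicate 1, and 15 and 16 without replicate 2 or 3. It was lower still without either spermatocyte library. Calls among all genes are not given beside these counts, so the shifts are not shown to be particular to the members.

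**Figure D2:**
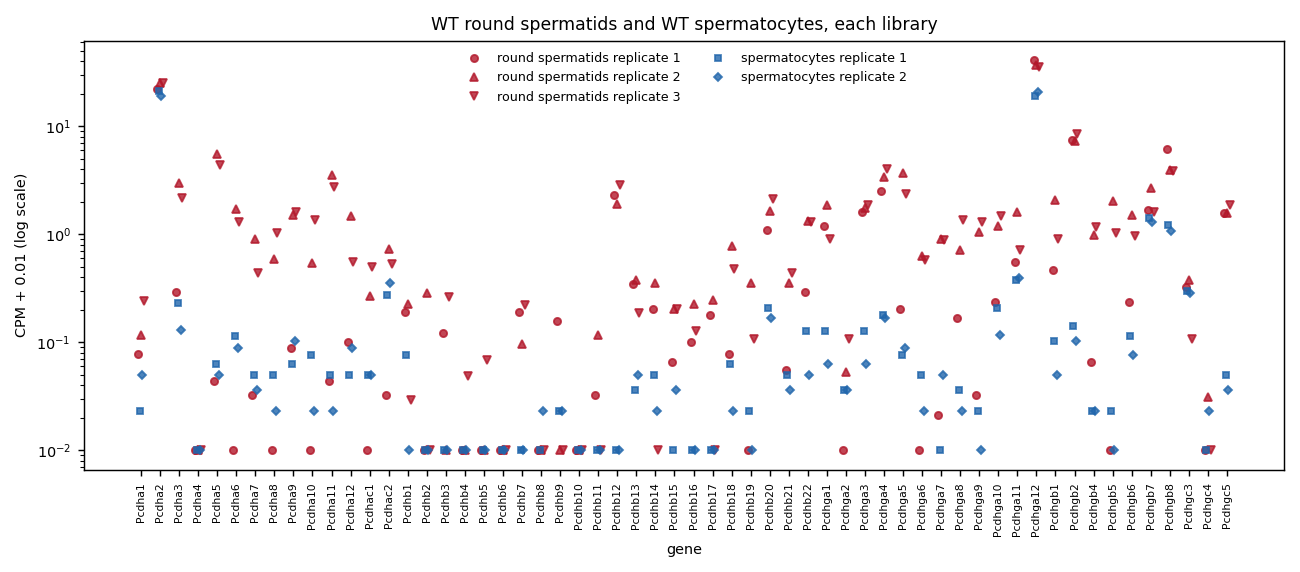
CPM plus 0.01 (log axis) of each clustered protocadherin gene (horizontal axis, in cluster order) in the 3 WT round spermatid libraries (red) and the 2 WT spermatocyte libraries (blue). Pcdha2 and Pcdhga12 lie near each other in both cell types, whereas Pcdhb12 lies between 1.88 and 2.88 CPM in round spermatids with no count in spermatocytes. Round spermatid replicate 1 (circles) lies with the spermatocytes at many alpha genes.

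Between genotypes, Pcdha2 had a lower mean in every mutant group than in WT. In whole testis it stood at 45.0, 35.3 and 38.7 CPM in WT, 30.7, 25.5 and 26.2 in BORIS KO, 29.2, 20.6 and 19.4 in CTCF HET and 11, 12.5 and 9.65 in CM. Every mutant library lay below every WT library, and every CM library lay below every library of the other genotypes. The difference from WT was -1.87 (SE 0.23, adjusted p = 0.0151, edgeR) on the log2 scale in CM, -0.54 (SE 0.15, adjusted p = 0.212) in BORIS KO and -0.77 (SE 0.20, adjusted p = 1) in CTCF HET. Libraries of the same replicate number deviated together in whole testis. With the replicate number as a block these differences were -1.88 (adjusted p = 0.000224), -0.54 (adjusted p = 0.0386) and -0.78 (adjusted p = 0.0277), of which only the first passed the 2-fold limit. The CM call was lost without WT replicate 2, WT replicate 3 or CM replicate 3, with adjusted p between 0.0572 and 0.0626 and a difference between -1.75 and -1.94.

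In round spermatids Pcdha2 stood at 22.1, 25.0 and 25.2 CPM in WT, 11.9, 13.2 and 10.6 in BORIS KO, 15.2, 10.9 and 14.3 in CTCF HET and 10.7, 3.77 and 12.4 in the libraries labelled CM. No mutant library reached the lowest WT library. The CTCF HET (-0.82, SE 0.15, adjusted p = 0.00759, edgeR) and BORIS KO (-0.98, SE 0.14, adjusted p = 0.000339) differences passed the p threshold but not the 2-fold limit, and the CM difference (-1.37, SE 0.40, adjusted p = 0.171) did not pass the p threshold.

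In spermatocytes Pcdha2 stood at 21.1 and 19.2 CPM in WT, 12.5, 12.7 and 13.5 in BORIS KO, 14.7, 10.3 and 10.2 in CM and 14.2, 21.0 and 16.1 in CTCF HET. The BORIS KO and CM libraries lay below both WT libraries, while CTCF HET replicate 2 lay between them. The BORIS KO difference was -0.65 (SE 0.08, adjusted p = 2.72e-05, edgeR), short of 2-fold, and the CM (-0.74, SE 0.21, adjusted p = 0.0861) and CTCF HET (-0.23, adjusted p = 0.577) differences did not pass. Pcdha2 thus had a lower mean than WT in all 9 comparisons with WT, and in 8 of them no mutant library reached the lowest WT library. The 3 comparisons of a preparation share their WT libraries, and how many of all genes behaved like this was not counted. Among the members, only Pcdha6 and Pcdhga4 besides Pcdha2 had a lower mean in all 9, and these were not tested in each of them.

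**Figure D3:**
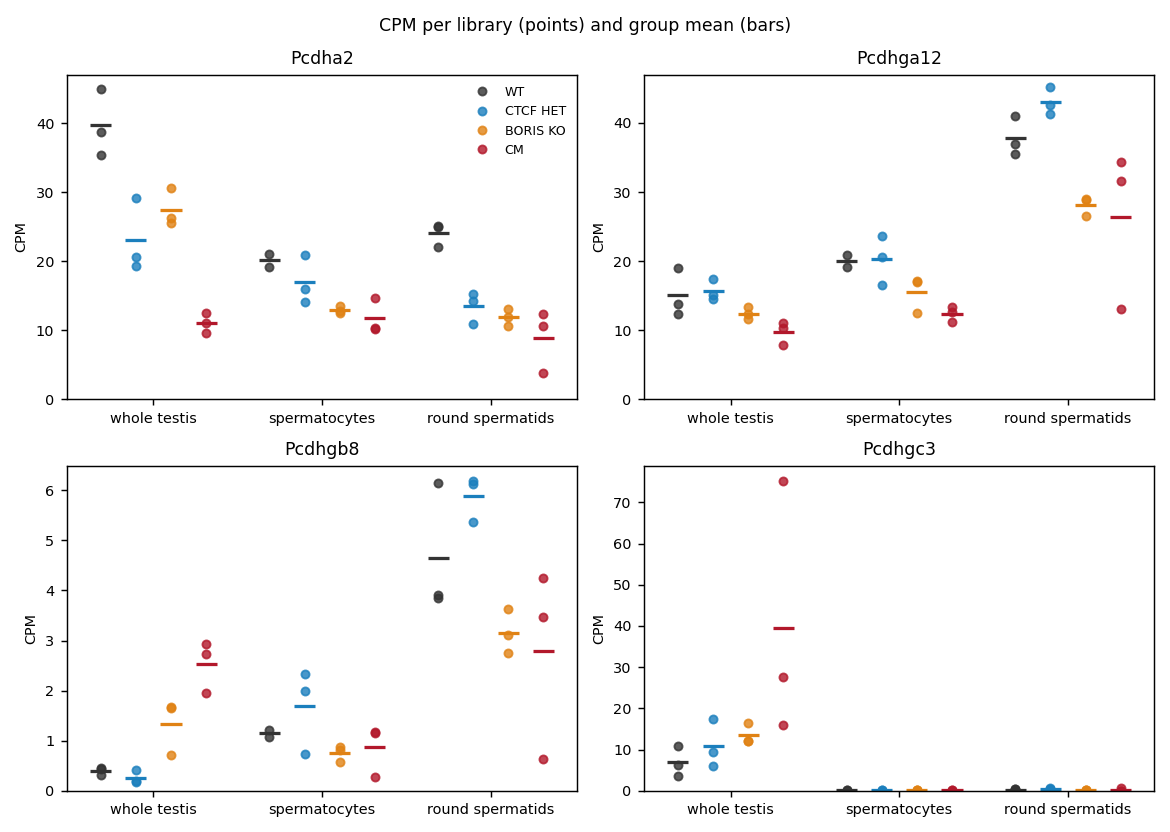
CPM of Pcdha2, Pcdhga12, Pcdhgb8 and Pcdhgc3 in each library (points) by preparation and genotype, with the group means as bars. For Pcdha2 the WT points lie highest in each preparation, except for 1 CTCF HET spermatocyte library at 21.0 CPM. Among the whole testis libraries Pcdhgb8 and Pcdhgc3 lie highest in CM, where 1 Pcdhgc3 point at 75.1 CPM stands apart from the others at 16.1 and 27.5.

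In CM testis the beta and gamma clusters moved opposite to Pcdha2. Of the 49 members tested, 14 rose and 1 fell, and 34 did not pass. Among all 16378 genes tested, 15.3% rose and 5.9% fell, 21.2% in all. The risen members were 4 of 14 tested beta genes and 10 of 22 tested gamma genes, and the fallen member was Pcdha2, 1 of 13 tested alpha genes. With the replicate block, where 27% of all genes were called, the same 15 members were called and Pcdhga2 (1.16, adjusted p = 0.0303, edgeR) and Pcdhga9 (1.13, adjusted p = 0.0402) rose as well. The median difference (CM minus WT) was -0.58 over the alpha genes, 0.68 over the beta genes and 1.19 over the gamma genes, against 0.00349 over all genes. Of the tested genes, 12 of 13 alpha genes had a negative difference, 13 of 14 beta genes a positive one and 18 of 22 gamma genes a positive one. Of the 22 beta genes 14 were tested here, against 8 in CTCF HET and 11 in BORIS KO testis compared with WT. Beta genes with few counts could thus pass the filter through the CM libraries, so signs and medians describe the tested members only.

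Summed over clusters, WT libraries held 77.1 to 93.7 CPM of alpha, 11.3 to 13.1 of beta and 49.6 to 55.7 of gamma genes, and CM libraries 34.7 to 44.4, 17.3 to 28.1 and 69.0 to 138.7. The ranges of the genotypes did not overlap in any cluster. Pcdha2 took 21.7% to 31.7% of the alpha counts in CM against 44.3% to 50.2% in WT, and Pcdhga12 took 7.49% to 16.0% of the gamma counts against 25.1% to 34.1%.

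The gene with the largest difference was Pcdhgb8. It stood at 0.324, 0.453 and 0.430 CPM in WT testis (11, 7 and 5 counts) and at 2.93, 1.96 and 2.72 in CM testis (117, 32 and 35 counts), with no overlap. The log2 difference was 2.66 (SE 0.38, adjusted p = 0.0151, edgeR). The C-type gene Pcdhgc3 followed, with 10.9, 6.34 and 3.70 CPM in WT and 75.1, 16.1 and 27.5 in CM. All CM libraries lay above WT, but CM replicate 1 stood far above the other CM libraries, and the difference of 2.45 (SE 0.57, adjusted p = 0.0209) was 1.67 (adjusted p = 0.0173) without it. Pcdhgc4, the C-type gene on which many neurons depend for survival, rose from 0.914, 0.841 and 1.20 CPM to 4.54, 1.83 and 2.18 (1.53, SE 0.43).

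The other risen gamma genes were of the A and B types. Pcdhgb4 (log2 difference 1.65, SE 0.35), Pcdhga8 (1.61, SE 0.36), Pcdhga3 (1.60, SE 0.36), Pcdhgb6 (1.54, SE 0.37), Pcdhga7 (1.37, SE 0.40), Pcdhgb5 (1.37, SE 0.38) and Pcdhga10 (1.27, SE 0.35) had CM means between 1.96 and 3.73 CPM and WT means between 0.626 and 1.4. In the beta cluster Pcdhb17 (1.8, SE 0.45), Pcdhb22 (1.52, SE 0.45) and Pcdhb7 (1.5, SE 0.41) rose, from WT means of 0.513, 0.334 and 0.758 CPM. Pcdhb3 rose by 2.19 (SE 0.69, adjusted p = 0.0481, edgeR), with 4.57, 1.41 and 0.778 CPM in CM against 0.295, 0.518 and 0.774 in WT. CM replicate 3 lay barely above WT, and without CM replicate 1 Pcdhb3 was no longer called (1.19, adjusted p = 0.146). In all 15 called genes the CM and WT libraries did not overlap. How many of all genes were without overlap was not counted. Calls favour genes without overlap, so this is no further support for them. Pcdhga12 stood at 13.8, 12.4 and 19.0 CPM in WT and 10.4, 11.1 and 7.86 in CM, all below WT, but did not pass (-0.66, adjusted p = 0.118).

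Markers of other cell types moved with these genes. Sertoli cell markers summed to 249 to 457 CPM in WT and 686 to 1421 in CM testis, with 5 of 7 markers called higher, and Leydig cell markers to 367 to 636 and 1879 to 3773, with 5 of 7 called higher. Spermatogonial markers summed to 52.7 to 71.4 in WT and 119 to 419 in CM, and spermatid markers to 13470.6 to 21330.2 and 3948 to 11728. Of 6 macrophage markers 4 (Cd14, Cd68, Csf1r and Emr1) were called higher in CM, while their sums overlapped, at 456 to 637 CPM in WT and 455 to 566 in CM. Every listed Sertoli and Leydig marker found in the table had counts in all of these libraries, and neuronal markers summed to 20.4 to 24.6 CPM in WT and 25.3 to 43.9 in CM. Their part in the protocadherin differences was not tested, and in bulk libraries fewer cells of a type and less RNA per cell cannot be told apart. The call count rested on single libraries: no member was called without WT replicate 2, WT replicate 3 or CM replicate 3, 4 were called without WT replicate 1, and 11 and 19 without CM replicate 1 or 2. All-gene calls dropped likewise, to 11, 3 and 4 in the first 3 cases.

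**Figure D4:**
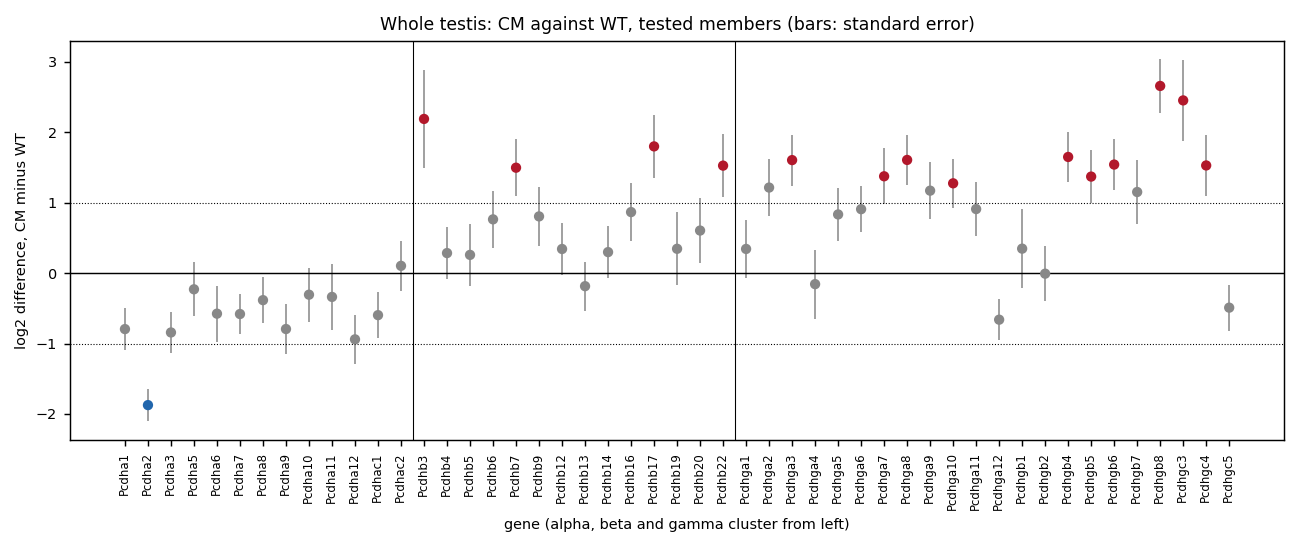
Log2 difference (CM minus WT, whole testis) of the 49 tested members in cluster order, with standard errors as bars, dotted lines at 2-fold, called genes in red (higher) or blue (lower) and others in grey. The alpha genes lie mostly below 0 with Pcdha2 at -1.87, and the called beta and gamma genes lie between 1.27 and 2.66.

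The single mutants had no called member in whole testis in the main fits. In CTCF HET testis none of 42 tested members was called (0.00621% of all genes were), and DESeq2 called none as well. An unadjusted p below 0.05 (edgeR) was found for 6 of the 42 and for 424 of all 16097 genes. Of the 6, 5 were among the 13 tested alpha genes. Of 13 alpha genes 11 had a negative difference, with a median of -0.63 against 0.0109 over all genes. Alpha genes summed to 43.5 to 72.2 CPM in CTCF HET and 60.0 to 71.9 in BORIS KO testis, below the 77.1 to 93.7 of WT. The lower alpha sum was thus not particular to CM. Beta and gamma sums of both single mutants overlapped WT. These sums were not tested. In BORIS KO testis none of 46 tested members was called by edgeR or DESeq2 (0.0551% of all genes were by edgeR). Of the 46, 5 had an unadjusted p below 0.05 (edgeR), as had 2717 of all 16344 genes. Pcdhgb8 stood at 0.711, 1.67 and 1.65 CPM in BORIS KO testis, above all WT libraries, a difference of 1.74 (adjusted p = 0.214, edgeR). With the replicate block it was the only member called (1.59, SE 0.39, adjusted p = 0.043), where 1.67% of all genes were called. Markers of Leydig cells (749 to 1489.6 CPM in BORIS KO against 367 to 636 in WT testis), Sertoli cells (495 to 597 against 249 to 457) and spermatogonia (93.3 to 122 against 52.7 to 71.4) also lay higher, and their part was not tested.

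Comparing CM with BORIS KO testis sets the loss of 1 Ctcf allele against a shared Boris-/- background. None of 50 tested members was called by edgeR (0.006% of all genes were). Of the 50, 11 had an unadjusted p below 0.05 (edgeR), as had 3594 of all 16655 genes. DESeq2 called 4 members (Pcdha2 lower, Pcdhb7, Pcdhga8 and Pcdhgc3 higher), where it called 6.2% of all genes. With the replicate block 3 members were called, where 6.03% of all genes were: Pcdha2 (-1.35, adjusted p = 0.0268, edgeR), Pcdhb7 (1.72, adjusted p = 0.0381) and Pcdhgb6 (1.54, adjusted p = 0.0469). All 13 tested alpha genes had a negative difference, all 15 beta genes a positive one and 20 of 22 gamma genes a positive one, with medians of -0.55, 0.30 and 0.66 against -0.0111 over all genes. Beta genes with few counts could pass the filter through the CM libraries, so these signs and medians describe the tested members only.

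In round spermatids the mutants had lower, not higher, levels of most tested members. Between 27 and 44 members had 10 or more counts in the WT libraries, against 21 to 32 in the mutant libraries. Members could thus pass the filter through the WT libraries alone, so signs and medians in round spermatids describe the tested members only. In BORIS KO cells 7 of 23 tested members fell and 1 rose, where 13% of all 15513 genes fell and 13.9% rose, 26.9% in all. The median over tested members was -0.53 (BORIS KO minus WT) against -0.0132 over all genes. Pcdhb12, which had no count in WT spermatocytes, stood at 2.29, 1.88 and 2.88 CPM in WT and 0.621, 0.633 and 1.03 in BORIS KO, with no overlap (-1.60, SE 0.29, adjusted p = 0.00136, edgeR). Pcdhb20 stood at 1.08, 1.65 and 2.12 CPM in WT and 0.343, 0.346 and 0.416 in BORIS KO (-2.09, SE 0.33, adjusted p = 0.000721). Pcdhb22 had 9 counts in all in BORIS KO and 153 in WT (-4.55, SE 0.72, adjusted p = 0.000666), again with no overlap.

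Pcdha3 (-3.03, SE 0.75), Pcdhga10 (-2.61, SE 0.67), Pcdhgb6 (-2.16, SE 0.64) and Pcdhga5 (-2.74, SE 0.82) also fell. For these WT replicate 1 was the low WT library, lying below the BORIS KO range at Pcdhga5 and within it at Pcdhgb6. Pcdhb9 rose (2.94, SE 0.86, adjusted p = 0.0171, edgeR), from 0.147, 0 and 0 CPM in WT to 0.449, 0.514 and 0.442. The count of members called was 29 (28 lower) without WT replicate 1 and 14 without BORIS KO replicate 2. Calls among all genes ranged from 3640 to 5351 with 1 library left out. Of the 7 spermatocyte markers 4 were lower in BORIS KO round spermatids, with sums of 3979 to 4175 CPM against 4497 to 5158, and their part in these differences was not tested.

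CTCF HET round spermatids had 3 of 35 tested members lower, where 3.91% of all genes fell and 5.39% were called in either direction. Pcdha3 stood at 0.279, 0.179 and 0.173 CPM against 0.282, 3.00 and 2.18 in WT (-3.05, SE 0.75), so that WT replicate 1 nearly touched the mutant range. Pcdhb22 had 18 counts against 153 (-3.28, SE 0.79), and Pcdhb20 stood at 0.630, 0.548 and 0.714 CPM, below all WT libraries (-1.34, SE 0.32, adjusted p = 0.0203, edgeR). Without WT replicate 1, 24 members were called, all lower, and without WT replicate 2 or 3 or CTCF HET replicate 1 or 2 none was. Calls among all genes ranged from 354 to 2041 with 1 library left out, so these shifts are not shown to be particular to the members. Spermatid markers summed to 822 to 905 CPM against 1193 to 1369 in WT, and their part was not tested.

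In the round spermatids labelled CM none of 36 tested members was called by edgeR (0.00654% of all genes were). An unadjusted p below 0.05 (edgeR) was found for 2 of the 36 and for 3136 of all 15298 genes. DESeq2 called Pcdha2 and Pcdha3, both lower, where it called 976 of all genes higher and 411 lower. Of the 36, 33 had a negative difference, with a median of -1.08 against -0.000125 over all genes. CM replicate 2 was the lowest library for Pcdha2 (3.77 CPM), Pcdhga12 (13.1 CPM against 34.4 and 31.6) and Pcdhgb8 (0.637 CPM against 4.25 and 3.47). The same library held spermatogonial markers at 357 CPM and Sertoli cell markers at 60.4 CPM, against at most 30.6 and 5.54 in WT, and their part was not tested. Without it no member was called either.

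Spermatocytes allowed few tests. No tested member was called by edgeR or DESeq2. The tested members were 8 in CTCF HET (4.89% of all genes called by edgeR), 12 in BORIS KO (8.43%) and 13 in CM (0.434%). Of these, 1, 4 and 3 members had an unadjusted p below 0.05 (edgeR). Over all genes 4128 of 13648, 8856 of 14338 and 4391 of 14747 had. The all-gene calls in CTCF HET were 310 higher and 357 lower, or 344 and 259 with median-ratio scaling in place of TMM. Pcdhga12 stood at 19.2 and 20.8 CPM in WT and 12.6, 17.1 and 17.1 in BORIS KO, all below WT (-0.37, adjusted p = 0.0257, edgeR, short of 2-fold). In round spermatids the same gene stood at 41.1, 37.0 and 35.5 CPM in WT and 29.0, 26.5 and 28.9 in BORIS KO (-0.39, adjusted p = 0.011), again without overlap.

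The effect of a genotype was also compared between round spermatids and spermatocytes, by edgeR's test of the interaction. The effects differed at an adjusted p below 0.05 in 7 of 44 tested members for CTCF HET, where 33.6% of all genes did, in 1 of 46 for BORIS KO (13.4% of all genes) and in 1 of 45 for the libraries labelled CM (3.51%). For both BORIS KO and CM the member was Pcdhb12, which had no count in WT spermatocytes.

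Of the 58 members, 32 were called in at least 1 of the 11 comparisons and 26 in none. The same count was not made over all genes. Between WT round spermatids and spermatocytes alone, 26 members and 52.3% of all genes tested were called. Pcdha4, Pcdhb2, Pcdhb8 and Pcdhb10 passed the low-count filter in no comparison, and 6 members passed it in all.

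Genes that act with the clusters were read from lists. Among 12 partners of protocadherin proteins, 6 rose in CM testis, where 15.3% of all genes rose: Adam10 (1.81), which cleaves their extracellular part, Psen2 (2.18), a subunit of the gamma-secretase that cuts the remaining stub, Cyfip1 (1.87) and Cyfip2 (1.68) of the WAVE actin complex, and the tyrosine kinases Ret (1.5) and Fyn (1.00). The list's median was 0.88. Of 19 tested regulators of the clusters, 1 rose, the histone methyltransferase Ehmt1 (1.43), and of 11 tested protocadherins outside the clusters 1 fell, Pcdh12 (-2.01). None of 14 genes beside or between the clusters was called there.

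In BORIS KO round spermatids, 5 of 20 regulators fell: Smc3 (-1.71), Smc1a (-1.05), Stag2 (-1.19), Nipbl (-1.22) and Pds5b (-1.17). All are cohesin subunits or factors that load or hold cohesin, but the list is rich in such genes. Rad21, Stag1, Pds5a and Wapal, also cohesin genes of the list, were tested and not called. The median over the 20 was -0.49, against -0.0132 over all genes, and 13% of all genes fell in this comparison (26.9% were called in either direction). The neighbouring genes Arap3 (2.38), Dnd1 (1.4) and Fchsd1 (1.22) rose, 3 of 13 tested. Between WT round spermatids and spermatocytes, 7 of 20 regulators were higher and 4 lower, a share near that of all genes, of which 52.3% were called and 29.3% were higher. Stag2 (6.46), Smc1a (5.56) and Smc3 (3.63) of cohesin and Ctcfl (5.69) were among the higher, and the maintenance DNA methyltransferase Dnmt1 (-3.08) and the repressor Smchd1 (-1.65) among the lower. Of the neighbouring genes 1 rose and 5 fell in that comparison.

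The ChIP-seq lists showed CTCF peaks across all 3 clusters. The WT list held 77 CTCF peaks there, 20 in the alpha, 31 in the beta and 26 in the gamma cluster, of 34625 in all. Of the 77, 26 (33.8%) overlapped a CM CTCF peak by at least 1 base, against 56.1% of all WT CTCF peaks. These shares are not matched for height or position. The median WT height was 316 in the clusters and 491 over all WT CTCF peaks, and higher peaks more often had a CM peak. Within heights up to 177, 177 to 491, 491 to 1379 and above, the cluster shares were 4.76%, 30.0%, 52.6% and 85.7%. Over all WT CTCF peaks they were 11.8%, 40.7%, 76.3% and 95.2%. The cluster share was thus lower in each range, on 7 to 30 peaks per range. There is 1 list per genotype, so these counts carry no replicate error and no test. Heights are used within a list only.

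The cluster peaks with a CM counterpart lay mostly at starts. Of the 26 cluster peaks whose summit lay within 500 bases of an annotated start, 16 (61.5%) had a CM peak, against 26.8% of start peaks over all genes. Of the 24 in coding exons none had, against 20.4% over all genes, and of the 27 elsewhere 10 had (37.0%, against 62.8%). Starts and coding exons, where all-gene shares were low, held 26 and 24 of the 77 cluster peaks. None of the 24 exon peaks was higher than 883. Over all genes 79.3% of coding exon peaks above 1379 had a CM peak. At heights up to 177, 177 to 491 and 491 to 1379 it was 1.81%, 6.71% and 26.9%. The 20.4% thus rests largely on peaks higher than those of the cluster exons.

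The beta genes, which the mm9 annotation names one by one except for Pcdhb20, showed this gene by gene. A WT CTCF peak lay 29 to 237 bases before the start of 12 of the 21 annotated genes (Pcdhb2 to Pcdhb8, Pcdhb10, Pcdhb14, Pcdhb15, Pcdhb17 and Pcdhb22). All of these but those of Pcdhb5 and Pcdhb22 had a CM peak. Inside the coding exon of 18 of the 21 another peak lay 1800 to 2366 bases after the start (median 2132), and none of these 18 had a CM peak. Pcdhb1, Pcdhb7 and Pcdhb9 lacked it, and 11 genes held both kinds. Beta genes resemble each other in sequence, and whether peaks at different genes shared reads was not tested. The 18 exon peaks are thus not shown to be separate sites.

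The heights of both kinds overlapped, at 159 to 963 (median 464) for starts and 109 to 883 (median 383.5) for exons. Among heights of 491 to 1379, above the median of all WT CTCF peaks, 5 of 5 beta start peaks and 0 of 7 beta exon peaks had a CM peak, where 26.1% of all start peaks and 26.9% of all coding exon peaks of that range had. Pcdhb4 gives an example. At chr18:37467109-37470827 (mm9) its start peak, with a height of 663, had a CM peak and its exon peak, with a height of 526 and 2129 bases inside the gene, had none.

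**Figure D5:**
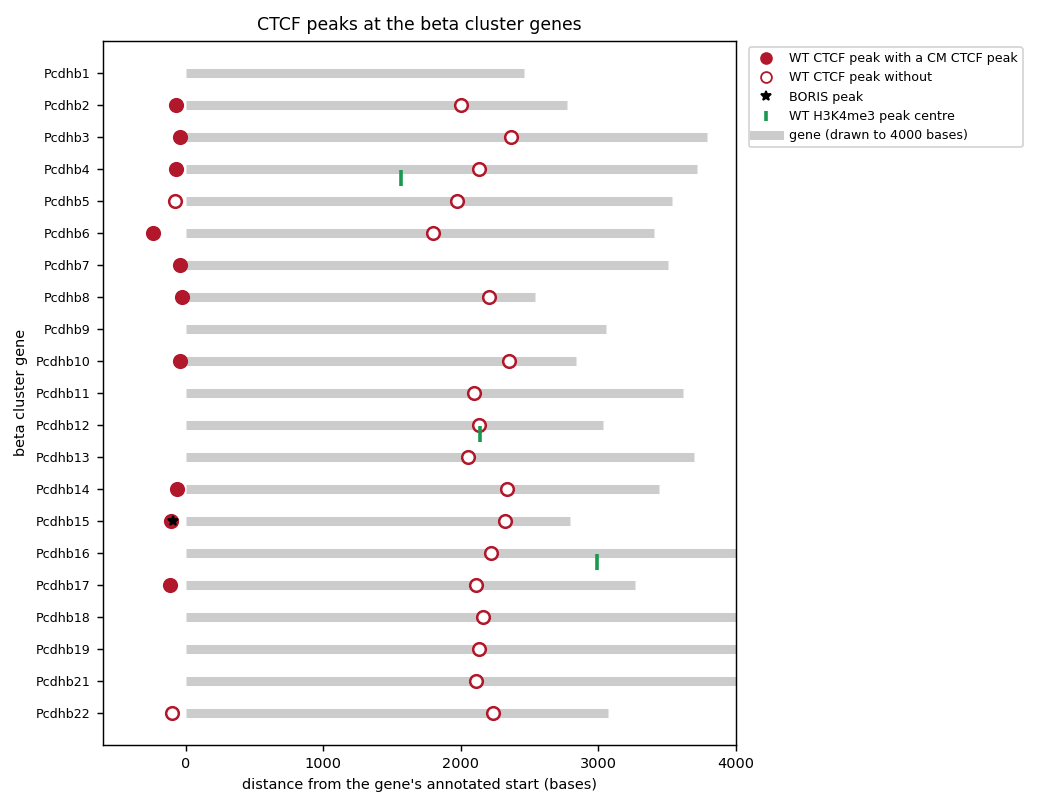
Peak positions at the 21 annotated beta genes, as distance in bases from each gene's start, with WT CTCF peaks drawn filled where a CM CTCF peak overlapped and open where none did, BORIS peaks as stars and WT H3K4me3 peak centres as green ticks. The 12 peaks before the starts are filled except at Pcdhb5 and Pcdhb22, and the peaks about 2132 bases inside the genes are all open.

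The 12-base CTCF core consensus, searched on both strands within 100 bases of each summit with 1 mismatch allowed, was found at 9 of the 77 cluster peaks (11.7%) and at 56.3% of all WT CTCF peaks. It was found at none of the 12 beta start peaks, at 4 of 18 beta exon peaks, each on the minus strand, and at 1 of 8 alpha start peaks, on the plus strand, which is the direction of transcription of the clusters. The alpha share depended on the form of the motif. With 5 positions left free and no mismatch it was found at 6 of the 8 alpha start peaks, at 27.3% of the cluster peaks and at 49.6% of all WT CTCF peaks. No match says only that these letters were not in the window.

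BORIS peaks were few, 6 in all, with 3 in the alpha, 1 in the beta and 2 in the gamma cluster. Each overlapped a WT CTCF peak, as did 81.7% of all BORIS peaks. The beta peak lay at the start of Pcdhb15, and 1 of the gamma peaks at the first gamma start.

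At the alpha cluster the annotation names only Pcdha3 apart from the whole. A WT and a CM CTCF peak lay at its start (37105801). The start before it (37098972) takes the place of Pcdha2 in the RefSeq gene order, which puts 1 gene between Pcdha1 and Pcdha3. Beside it the WT list held Pol2 peaks at chr18:37097970-37099143 and chr18:37099303-37101236 with scores of 91.46 and 302.09, and the CM list held 1 at chr18:37099399-37100534 with a score of 94.62. WT H3K4me3 peaks followed at chr18:37099531-37100286 and chr18:37100663-37101415, without a CM counterpart. Both CTCF lists held a peak within 500 bases of this start, but the WT and CM peaks did not overlap. Over the whole alpha cluster the WT lists held 4 Pol2 and 8 H3K4me3 peaks, and the CM lists 1 and 0. The lists differed in length, with 25192 Pol2 and 34347 H3K4me3 peaks in WT and 28407 and 20432 in CM.

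In the beta and gamma clusters the numbers were closer, at 2 and 8 Pol2 peaks in both genotypes, and 4 and 12 H3K4me3 peaks in WT against 3 and 7 in CM. Of the 24 WT H3K4me3 peaks in the clusters, 9 (37.5%) had a CM peak, against 51.4% of all WT peaks, and of the 14 WT Pol2 peaks 7 (50%) had one, against 65.2%. Pcdhb12 (chr18:37595275-37598308), the beta gene with the highest mean CPM in WT round spermatids, held both of the beta cluster's WT Pol2 peaks, 1 Pol2 peak and 2 H3K4me3 peaks in CM, and 1 H3K4me3 peak in WT. It had no CTCF peak at its start, and its exon peak, the highest of the 18 at 883, had no CM counterpart.

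Beside the RNA levels, the 4 beta genes that rose in CM testis held different peaks. Pcdhb3, Pcdhb7 and Pcdhb17 had a start peak in both WT and CM, and Pcdhb22 in WT only. Pcdhb7 had no exon peak, and the exon peaks of the other 3 had no CM counterpart. Gamma starts could not be matched to single genes in this annotation, where 6 of 9 annotated gamma starts had a WT CTCF peak and 3 a CM CTCF peak.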

How the data were processed

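RNA was measured in 35 libraries and protein binding by ChIP-seq. The deposited counts were raw, whole numbers per gene symbol. The authors aligned the whole testis reads (Ion Proton, single end) to mm9 with TopHat2 and then Bowtie2 in local mode, and the reads of purified cells (HiSeq2000, single end) with STAR. The counting program, annotation and strand setting were not given in the sources used here. The deposited ChIP-seq peaks were called by the authors with MACS on Bowtie2 alignments and divided into sub-peaks with PeakSplitter. The CTCF and BORIS lists give a height as a signal value at each summit, and the deposited Pol2 and H3K4me3 lists give a score. How the replicates were combined was not given in the sources used here.

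Each comparison was fitted on all genes of its libraries alone with edgeR 4.0.16 (R 4.3.3), using filterByExpr (minimum count 10, minimum total 15), TMM scaling and the quasi-likelihood test, two-sided. Genes were called at an adjusted p below 0.05 (Benjamini-Hochberg) and a fold change above 2. CPM used the TMM-scaled library sizes of a preparation. Whole testis replicates were separate preparations of 4 mice. For purified cells the sources do not say which replicates came from separate animals, so the spread there may be partly technical. Libraries of the same number deviated together in whole testis (18 of 18 pairs with r above 0.1, from 0.121 to 0.631). They did not in round spermatids (4 of 18) or spermatocytes (1 of 15). The main fits ignored this pairing, and the replicate number entered as a block only in an alternative fit. Whole testis calls and adjusted p values are from fits without the block unless it is named. On simulated counts with 200 genes changed 4-fold, 87.5% were recovered for CM testis (16378 genes) and 90% for the round spermatid and spermatocyte comparison (16052 genes). The changed genes were drawn only from genes with higher mean counts, and no effect shared by replicate number was simulated. These rates therefore do not cover members with few counts. A fold against a group with no counts was set against 3 counts over the group, which covers counting error only.

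Peaks were compared by an overlap of at least 1 base. Gene positions came from GENCODE for mm9, and RefSeq was used only for gene order. Sequences of these members are not reported here. Both forms of the CTCF motif were chosen after the data were seen, and the form allowing 1 mismatch after the result of the other. The members and lists were chosen with earlier results of these data known. Named were members called in any comparison, the 2 highest of each cluster and preparation in WT, and members with a CTCF or BORIS peak within 1000 bases of their start. Of the called genes of the lists only some are named. Alternatives were DESeq2 1.42.0, median-ratio scaling, no filter, all genotypes in 1 fit, other thresholds, the replicate block, each library left out, and other peak settings.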

Additional observations from a re-analysis of the deposited data

Results flagged for a closer look

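For 9 pairs of member and genotype, the mutant effect differed between round spermatids and spermatocytes in an edgeR quasi-likelihood test of the interaction of genotype and preparation that was added after the data were seen. Values are log2 differences of the mutant effect, round spermatids minus spermatocytes. For CTCF HET, 33.6% of all 16152 genes tested passed the adjusted p of 0.05, for BORIS KO 13.4% of 16519 and for CM 3.51% of 17077, so passing is not particular to these members.

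Pcdhb12 passed for BORIS KO (-6.3262, adjusted p = 0.0244) and for the libraries labelled CM (-7.9305, adjusted p = 0.0221). It had no count in the WT spermatocyte libraries, so the size of both values depends on how a count of 0 is fitted. The mean of Pcdhb12 in round spermatids was 2.35 CPM in WT and 0.760 in BORIS KO.

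For CTCF HET, Pcdhgb2 (5.5562), Pcdhga4 (5.7711), Pcdhga3 (5.6149), Pcdhga1 (4.6549), Pcdhb13 (4.6441) and Pcdhgc5 (3.7704) had positive values. All CTCF HET spermatocyte libraries were at 0 for these genes, and these libraries had a count in only 8 to 12 members. Pcdhb16 had a negative value (-9.9129, adjusted p = 0.0474), and its only counts in CTCF HET spermatocytes were 60 in replicate 1. The part of the low number of detected genes in these values was not tested.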

How the results depend on the processing

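None of the 604 values of called members under alternatives changed direction (427 stayed called and 177 lost the call). Counts of called members under each alternative follow. In CM testis the count of 15 became 0 at the study's threshold (adjusted p below 0.001) and ranged from 0 to 19 with 1 library left out, while calls among all genes ranged from 3 to 4383. In CTCF HET round spermatids the count of 3 became 0 at the study's threshold, 0 with all genotypes in 1 fit, 5 with the replicate block, and 0 to 24 with 1 library left out. Calls among all genes ranged from 354 to 2041 in the last case. In BORIS KO round spermatids the count of 8 became 18 with no filter, 2 at the study's threshold and 6 to 29 with 1 library left out. Calls among all genes ranged from 3640 to 5351 in the last case. Between WT round spermatids and spermatocytes the count of 26 became 8 at the study's threshold and 10 to 35 with 1 library left out. Where no member had been called, BORIS KO testis gave 1 with the block. CM against BORIS KO testis gave 4 with DESeq2, 1 with all genotypes in 1 fit, 3 with the block and 0 to 5 with 1 library left out. Calls among all genes ranged from 0 to 1279 in the last case. CM round spermatids gave 2 with DESeq2, 6 with all genotypes in 1 fit and 0 to 0 with 1 library left out. Calls among all genes ranged from 0 to 811 in the last case. In spermatocytes CTCF HET gave 1 with all genotypes in 1 fit and 0 to 3 with 1 library left out, BORIS KO gave 2 with no filter, 3 with no fold limit and 0 to 1, and CM gave 0 to 2. Where an arm was left with 1 library, it was assumed to vary like the other group. The block changed no other count by more than 1.5 times, and in purified cells the numbers did not pair the libraries (r from -0.216 to 0.218). Median-ratio scaling moved the median of all genes by at most 0.0711 and no member count by more than 1.5 times. All-gene calls also moved. With DESeq2 they went from 1 to 3 in CTCF HET testis, 9 to 225 in BORIS KO testis, 1 to 1032 in CM against BORIS KO testis, 1 to 1387 in CM round spermatids and 64 to 1175 in CM spermatocytes. With the block they became 18, 273 and 1004 in the first 3 of these. At the study's threshold they were 0 in CM testis. With all genotypes in 1 fit they became 234 from 821 in CTCF HET round spermatids, 1987 from 1 in CM round spermatids and, in spermatocytes, 1305 from 667 in CTCF HET, 300 from 1208 in BORIS KO and 515 from 64 in CM. Among peaks, restricting both lists to the upper 50% of heights left 12 of 26 WT CTCF peaks with a CM peak (46.2%), and the 50% overlap and 10 kb settings both left 26. Few counts limited the tests in spermatocytes, where 6 to 17 members had 10 or more, although these libraries were deeper than those of whole testis. The causes were not tested.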
